A study of Mus musculus with 10 samples.

Results

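The 10 genes described here encode repressors and an output factor of the circadian clock: Per1, Per2, Per3, Cry1, Cry2, Bhlhe40, Bhlhe41, Nr1d1, Nr1d2 and Dbp. They were taken by symbol from the 32531 genes of each count table, and all 10 were present and passed the filter on low counts. RNA bound to EGFP-tagged ribosomes (translating ribosome affinity purification, TRAP) was sequenced from the cerebral cortex; every group was made up of adult mice of the S100a10-EGFP/Rpl10a line ES691. In this line S100a10 regulatory sequences place the EGFP-tagged ribosomal protein, so the immunopurified (IP) RNA comes from whichever cells use those sequences. The IP groups were 3 libraries from mice with saline self-administration, 3 from mice with cocaine self-administration (short access, intravenous) and 3 labelled yoked control. Total RNA of the saline input gave 1 library. The labels used here do not give what the yoked mice received, the animals per library or the hour of day at which tissue was taken. Whether a group's libraries came from different animals is not stated, so each SE and p-value reflects no more than library-to-library spread, which may be technical.

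The clock works as a loop of transcription and repression. CLOCK or its relative NPAS2 pairs with BMAL1 (gene symbol Arntl) and drives genes through E-box motifs, among them the Per and Cry genes, whose proteins return to the nucleus and block that pair. The BHLHE40 and BHLHE41 proteins compete at E-boxes, the nuclear receptors NR1D1 and NR1D2 (REV-ERB) repress Arntl against the activating ROR receptors, and DBP activates genes through D-box motifs. Outside the hypothalamic pacemaker these genes also cycle in cortex, and Per1 is in addition a rapid target of neuronal activity and of glucocorticoids.

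Gene counts per IP library totalled 38653752 to 50898401, and the input had 69974908. The library names put each IP group on its own lane, and effects of lane and of group cannot be told apart. Reads aligned to more than 1 place made up 43.2% to 46.8% of the reads listed in the saline IP libraries and 38.3% to 41.6% in the cocaine and yoked ones, with no overlap, and the part of this difference in the comparisons with saline was not tested. The tissue is labelled as neurons. Excitatory neuron markers (6 of 6 present) summed to 2986 to 4277 CPM (counts scaled to a common library size) in saline IP, 3885 to 4410 in cocaine IP and 3501 to 4414 in yoked IP, against 4131 in the input. The transgene's namesake S100a10 was at 168 to 282 CPM after IP and 35.2 CPM before it. All 8 meningeal fibroblast markers were present too, with sums of 1039 to 1350, 860 to 1255 and 925 to 1481 CPM in the 3 IP groups in the same order and 47.8 CPM in the input. In bulk RNA of this kind, fewer cells of a type and less RNA per cell cannot be told apart.

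The DNA just upstream of the start sites given for the members shows which of the loop's motifs lie there. RefSeq promoters (GRCm38.p6) were given for 8 members and not for Per2 or Bhlhe40. Both Per1 windows (69098699 to 69098998 and 69099902 to 69100201) lie within the annotated span of that gene, which begins at 69095217. The DNA before that first base of Per1 was not searched. The 250 bases before each start were searched on both strands for CACGTG (E-box), TTATGTAA or its reverse complement TTACATAA (D-box), AGGTCA (the core site of nuclear receptors) and TGACGTCA (cyclic AMP response element, CRE). An E-box stood in the windows of Per1, Cry1 and Bhlhe41, against 6.02% of all 32851 promoter windows. The Per3 window held the D-box at 2 places, 205 and 158 bases upstream, and 0.819% of all windows held it at least once. AGGTCA stood in the windows of Per1 and Nr1d2, against 14% of all windows. The CRE, found in 1.55% of all windows, was in none of the members' windows, and the windows of Cry2, Nr1d1 and Dbp and a further Per1 window held none of the 4 motifs. These matches are letters in a short window, and binding was not measured. The stretches with a match are shown 5′ to 3′ on the gene's strand, with the motifs in capitals (in Per1 the E-box, then AGGTCA on the opposite strand).
Per1 (chr11:69098753-69098847, plus strand): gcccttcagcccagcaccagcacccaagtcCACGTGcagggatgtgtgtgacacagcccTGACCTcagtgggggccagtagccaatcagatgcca
Per3 (chr4:151044786-151044900, minus strand): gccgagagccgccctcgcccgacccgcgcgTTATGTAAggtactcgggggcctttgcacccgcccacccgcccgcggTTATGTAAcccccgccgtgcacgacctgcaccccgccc
Cry1 (chr10:85185079-85185144, minus strand): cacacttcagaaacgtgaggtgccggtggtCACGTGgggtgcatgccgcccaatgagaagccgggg
Bhlhe41 (chr6:145865559-145865603, minus strand): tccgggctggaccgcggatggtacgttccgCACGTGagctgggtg
Nr1d2 (chr14:18239148-18239213, minus strand): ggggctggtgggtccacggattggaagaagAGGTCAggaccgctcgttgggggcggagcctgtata

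All 10 members were well measured in these libraries, with counts between 275 (Dbp) and 20565 (Bhlhe40). Levels of different genes were set side by side as CPM per kilobase of exonic sequence, given as mean ± SD over the 9 IP libraries. Bhlhe40 was highest at 74.5 ± 10.1 CPM per kilobase, followed by Cry2 at 42.7 ± 5.34, and neither range reached the next gene's. Nr1d1 (23.5 ± 4.69), Nr1d2 (21.1 ± 3.99), Bhlhe41 (20.5 ± 3.08) and Per1 (14.3 ± 3.08) formed a middle tier in which each gene's range overlapped that of its neighbours. Cry1 (9.996 ± 1.56) overlapped Per1 but stood apart from the lowest tier of Per2 (5.11 ± 1.002), Per3 (3.99 ± 0.552) and Dbp (2.96 ± 0.624), whose ranges overlapped in turn. Within each paralog pair, the levels per kilobase were thus far apart for Cry2 and Cry1 and for Bhlhe40 and Bhlhe41, and overlapping for Nr1d1 and Nr1d2. These orders also hold in the input, where Bhlhe40 was at 48.6 CPM per kilobase, Cry2 at 36.7, Cry1 at 7.39 and Dbp at 2.12, except that Nr1d2 (16.9) stood above Nr1d1 (14.7).

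**Figure D1:**
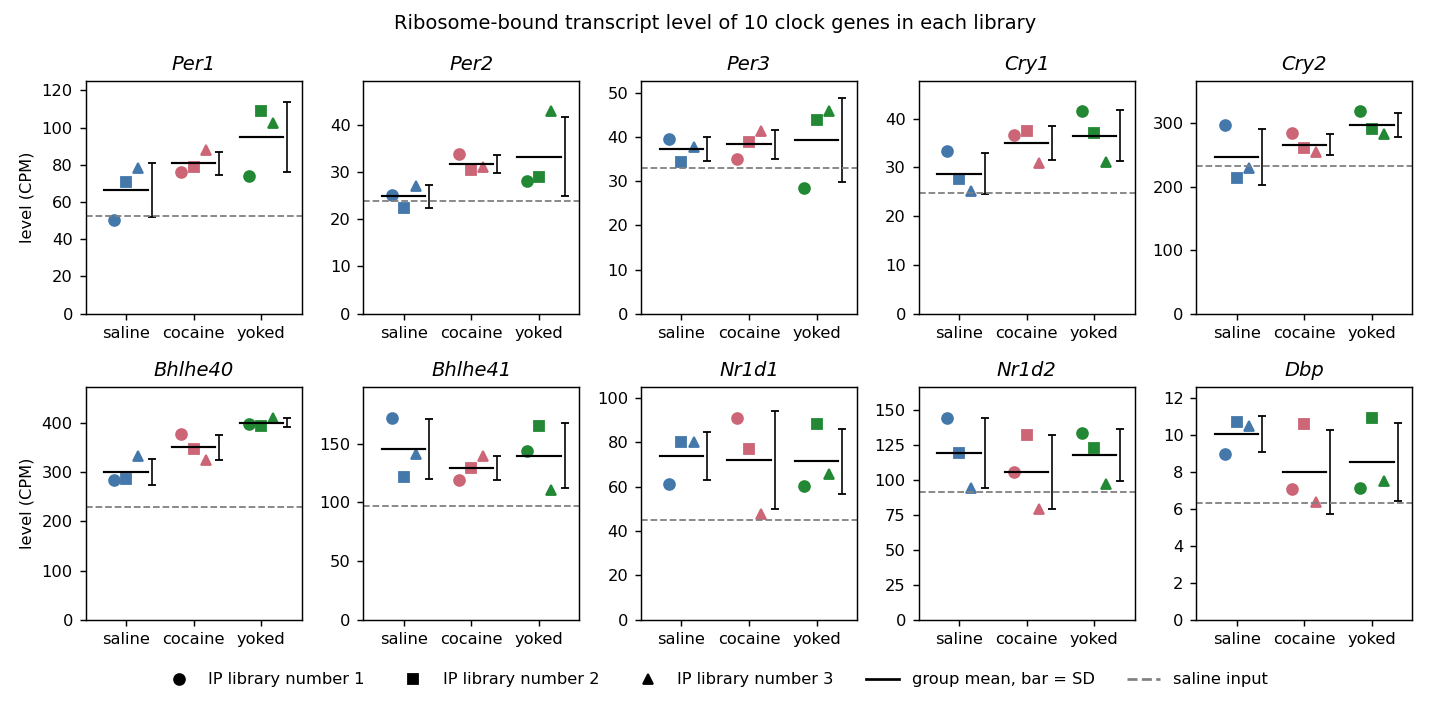
Level (CPM, linear axis from 0) of each of the 10 genes in every IP library, by group; circles, squares and triangles are libraries numbered 1, 2 and 3, black lines are group means with SD bars (n = 3), and the dashed line is the single saline input. Yoked Bhlhe40 levels (394 to 411 CPM) lie above all saline levels (284 to 332 CPM), as is so for 3.03% of all genes. Saline Per2 levels lie below those of both other groups. The groups of all members but Per2 and Bhlhe40 overlap.

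The members were selected on their CPM across the saline, cocaine and yoked IP libraries and against input, so their levels and fold changes between IP groups and against input are a description and support nothing by themselves. Differences are log2 fold changes (log2FC) ± SE from edgeR's quasi-likelihood fit over all genes. A gene was called at a Benjamini-Hochberg adjusted p under 0.05 over all genes tested. Between cocaine and saline, yoked and saline, or cocaine and yoked IP, 0 of the 10 members were called. Of all 16642 genes tested by edgeR, 0% were called, and DESeq2 also called 0 genes. At an unadjusted p under 0.05, the members passing in those 3 comparisons were 0, 3 and 0 in edgeR, and the percentages of all genes passing were 3.18, 2.39 and 0.955. In simulated counts for cocaine against saline with 16395 genes, the fit recovered 51.5% of genes changed by 1 on the log2 scale and 84.7% of those changed by 2. The fit made 11 false calls there. In the real data of that comparison the members' differences ranged from -0.34 to 0.34. No change that small was simulated, and the simulated libraries held no effect shared by library number. Recovery of differences of the members' size was thus not measured.

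The Per genes encode the period proteins, the core repressor subunits that carry cryptochromes into the nucleus. Per1 (chromosome 11, 69095217 to 69109960, plus strand, protein coding) was at 50.3, 70.8 and 78.2 CPM in saline IP, 75.9, 78.7 and 87.9 CPM in cocaine IP, 73.8, 108.7 and 102.4 CPM in yoked IP and 52.4 CPM in the input. Saline library 1 was the lowest of the 9, yoked libraries 2 and 3 were the highest, and the groups overlapped. Per1 had a log2FC of 0.27 ± 0.19 in cocaine and 0.51 ± 0.19 in yoked against saline, and -0.24 ± 0.19 in cocaine against yoked. Single libraries moved these values: cocaine against saline was 0.11 without saline library 1 and 0.41 without saline library 3, and cocaine against yoked was -0.39 without yoked library 1 and -0.13 without yoked library 2. Its range over the 9 IP libraries, 2.16-fold from lowest to highest, was the widest of the 10 members.

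Per2 (chromosome 1, 91415982 to 91459324, minus strand, protein coding) was at 25.05, 22.3 and 27.1 CPM in saline IP, 33.8, 30.3 and 31.0 in cocaine IP, 28.0, 28.8 and 42.8 in yoked IP and 23.9 in the input. All 3 saline libraries lay below all libraries of the other groups, and yoked library 3 stood above the rest. The log2FC was 0.34 ± 0.18 in cocaine and 0.41 ± 0.18 in yoked against saline, and the latter was 0.19 without yoked library 3. Per3 (chromosome 4, 151003652 to 151044665, minus strand, protein coding) showed no such separation, at 39.6, 34.3 and 37.8 CPM in saline IP, 34.95, 38.8 and 41.4 in cocaine IP, 28.4, 43.9 and 45.8 in yoked IP and 32.9 in the input. Its lowest and its highest library were both yoked. Its log2FC was 0.03 ± 0.18 in cocaine and 0.07 ± 0.18 in yoked against saline, and neither sign was stable. The cocaine value was -0.02 without saline library 2 and also without cocaine library 3, the yoked value ran from -0.04 without yoked library 3 to 0.26 without yoked library 1, and both were negative with the trend on transcript length removed (-0.05 and -0.01).

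Cryptochromes, encoded by Cry1 and Cry2, are the strongest repressors of the CLOCK and BMAL1 pair. Cry1 (chromosome 10, 85131700 to 85185064, minus strand, protein coding) was at 33.3, 27.6 and 25.2 CPM in saline IP, 36.6, 37.4 and 30.9 in cocaine IP, 41.5, 36.9 and 31.1 in yoked IP and 24.7 in the input. Within each group library 3 was the lowest, and the groups overlapped through saline library 1. Cry1 had a log2FC of 0.27 ± 0.17 in cocaine and 0.34 ± 0.17 in yoked against saline. Cry2 (chromosome 2, 92403646 to 92434043, minus strand, protein coding), several times more abundant, was at 296.5, 212.9 and 229.6 CPM in saline IP, 284.9, 260.0 and 254.0 in cocaine IP, 318.5, 290.6 and 282.7 in yoked IP and 232.2 in the input. Saline library 1 was the second highest of the 9 and library 1 the highest in each group. The log2FC was 0.10 ± 0.15 in cocaine and 0.26 ± 0.15 in yoked against saline, but 0.27 and 0.42 without saline library 1 and 0.01 and 0.17 without saline library 2. Exons of D930015M05Rik on the opposite strand share 4.67% of the exonic sequence of Cry2.

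Bhlhe40 (also known as Dec1) and Bhlhe41 (Dec2) encode related helix-loop-helix repressors that bind the same E-boxes. Bhlhe40 (chromosome 6, 108660629 to 108666925, plus strand, protein coding) was at 284.4, 286.1 and 332.1 CPM in saline IP, 377.7, 348.3 and 325.1 in cocaine IP, 397.4, 393.7 and 411.3 in yoked IP and 228.8 in the input. The 3 yoked libraries were the 3 highest of the 9, with the cocaine libraries between and reaching into the saline range. Its log2FC was 0.41 ± 0.13 in yoked and 0.21 ± 0.13 in cocaine against saline, and -0.20 ± 0.13 in cocaine against yoked. With the 3 libraries numbered 3 left out, the cocaine value was 0.34. Exons of 0610040F04Rik on the opposite strand share 2.51% of the exonic sequence of Bhlhe40. Bhlhe41, also on chromosome 6 (145858243 to 145865558, minus strand, protein coding), was at 172.1, 121.4 and 141.4 CPM in saline IP, 119.3, 129.3 and 139.3 in cocaine IP, 143.5, 165.2 and 110.1 in yoked IP and 97.1 in the input. The groups overlapped, with saline library 1 highest and yoked library 3 lowest. Its log2FC was -0.18 ± 0.18 in cocaine and -0.06 ± 0.18 in yoked against saline. Without saline library 1 these were -0.03 and 0.08, and without yoked library 3 the yoked value was 0.09. Of its exonic sequence, 19.05% lies opposite exons of Gm43909.

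Nr1d1 and Nr1d2 encode the REV-ERB alpha and beta receptors, heme-binding repressors of the activating arm. Nr1d1 (chromosome 11, 98767932 to 98775333, minus strand, protein coding) was at 61.4, 80.1 and 80.3 CPM in saline IP, 91.2, 77.1 and 47.7 in cocaine IP, 60.5, 88.2 and 65.6 in yoked IP and 45.1 in the input. The cocaine group held both the highest and the lowest of the 9 libraries. The group means lay close together, with a log2FC of -0.05 ± 0.23 in cocaine and -0.06 ± 0.23 in yoked against saline. Without cocaine library 3 the cocaine value was 0.18. Nr1d2 (chromosome 14, 18204054 to 18239127, minus strand, protein coding) was at 144.7, 119.0 and 94.5 CPM in saline IP, 105.5, 132.5 and 79.1 in cocaine IP, 133.9, 122.7 and 97.1 in yoked IP and 91.5 in the input. Here library 3 was the lowest of each group, and the log2FC was -0.19 ± 0.21 in cocaine and -0.03 ± 0.21 in yoked against saline. The cocaine value was -0.02 without saline library 1, -0.01 without cocaine library 3 and -0.37 without cocaine library 2, and the yoked value ran from -0.17 without saline library 3 to 0.14 without saline library 1. Of the exonic sequence of Nr1d1, 8.55% lies opposite exons of Thra, and without a stated strand setting reads of such overlaps cannot be separated.

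Dbp, the output member, encodes a PAR-domain leucine zipper factor whose own transcript is a classic high-amplitude product of the loop. Dbp (chromosome 7, 45705088 to 45710203, plus strand, protein coding) was at 8.97, 10.73 and 10.499 CPM in saline IP, 7.06, 10.6 and 6.35 in cocaine IP, 7.13, 10.9 and 7.50 in yoked IP and 6.35 in the input. Library 2 was the highest in each group, at nearly the same level in all 3 groups, and the groups overlapped. The log2FC was -0.34 ± 0.24 in cocaine and -0.24 ± 0.24 in yoked against saline. The cocaine value was -0.59 without cocaine library 2 and -0.19 without cocaine library 3, and the yoked value was -0.46 without yoked library 2 and -0.13 without yoked library 1. Exons of Sphk2 on the opposite strand share 18.01% of the exonic sequence of Dbp.

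**Figure D2:**
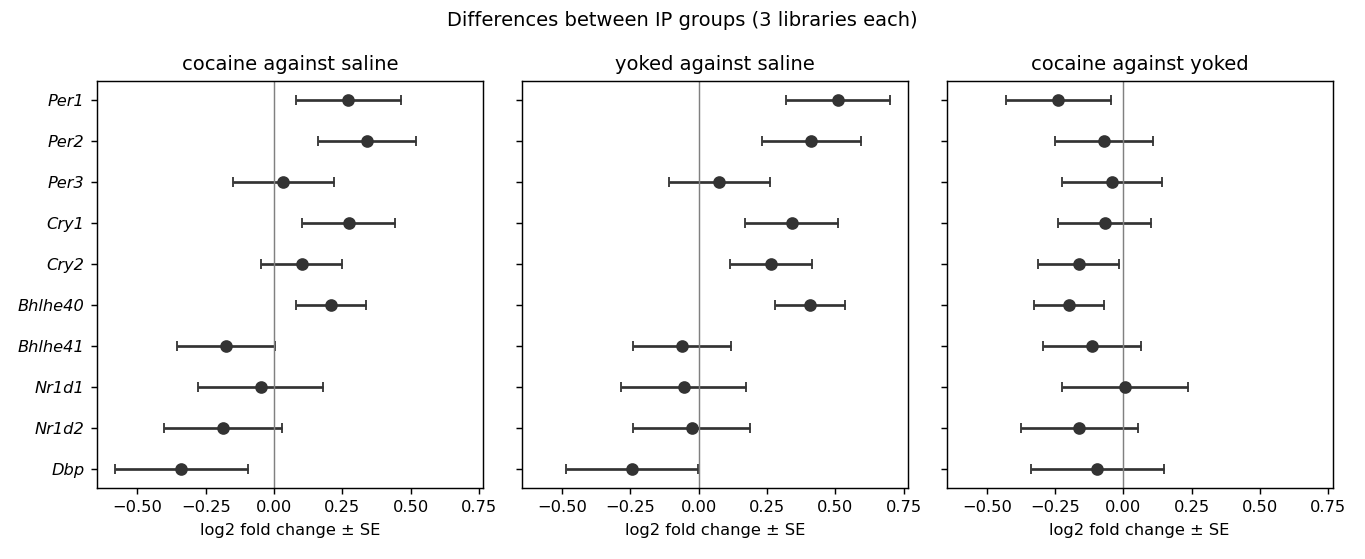
Log2 fold change ± SE (horizontal axis) of the 10 genes for each pair of IP groups, 3 libraries a group. Per1, Per2, Cry1, Cry2 and Bhlhe40 lie above 0 against saline in both the cocaine and the yoked panel, Dbp lies below 0 in both, and no member was called.

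The members' directions were set beside those of all genes. Against saline, 6 of 10 had a log2FC above 0 in cocaine (median 0.07) and 6 in yoked (median 0.17), where 46.9% and 48.1% of all tested genes were above 0 (medians -0.02 and -0.01). These comparisons share the saline libraries. In cocaine against yoked, 9 of 10 members were below 0 (median -0.11), where 47.6% of all genes were above 0 (median -0.01), and the 9 differences ranged from -0.24 to -0.04. Some lists of cell type markers lay on 1 side of 0 in that comparison too. Above 0 were 0 of 8 meningeal fibroblast markers (median -0.12), 6 of 6 interneuron markers (median 0.60) and 6 of 6 oligodendrocyte markers (median 0.65). The summed CPM of each of these lists overlapped between cocaine and yoked. The other lists were mixed, with 3 of 6 above 0 for excitatory neuron, microglia and endothelium each. Mural markers had 2 of 6 above 0, astrocyte markers 5 of 6 and blood markers 2 of 3. In each list 0 were called. The part of these markers in the members' values was not tested. Groups did not overlap for Per2 (higher) in cocaine against saline, where 4.64% of all genes were higher and 4.32% lower without overlap, or for Per2 and Bhlhe40 (higher) in yoked against saline, where 3.03% were higher and 3.05% lower. Bhlhe40 was also lower without overlap in cocaine than in yoked, as were 2.25% of all genes, with 2.49% higher.

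Transcripts that share inputs with the clock were read beside Per1 and Bhlhe40. The sum of 10 activity-inducible genes was 888, 963 and 1281 CPM in saline IP, 1494, 1284 and 1440 in cocaine IP and 1283, 1180 and 1583 in yoked IP. Of these genes 8 were above saline in cocaine (median log2FC 0.29) and 6 in yoked (0.27), and 0 were called in either, with 3 at an unadjusted p under 0.05 in each. Egr2 had the largest value in both, 0.76 ± 0.28 and 0.86 ± 0.28 (edgeR adjusted p = 0.9899 and 0.9998), and Ier2 the largest negative one, -0.54 ± 0.23 and -0.75 ± 0.23. Saline library 1 was lowest both for this sum and for Per1, but the other groups did not follow. Cocaine library 1 had the group's highest sum and lowest Per1, and yoked library 2 its group's lowest sum and highest Per1. Egr1 alone averaged 777, 1094 and 1044 CPM in saline, cocaine and yoked IP, of mean sums of 1044, 1406 and 1349. The sum of 8 glucocorticoid-inducible genes overlapped between groups, at 417 to 528 CPM in saline, 483 to 490 in cocaine and 475 to 525 in yoked, and Sgk1 had the largest values against saline, 0.18 ± 0.16 and 0.30 ± 0.16. Against input, Ier2 (1.202 ± 0.35), Sult1a1 (4.18 ± 0.36) and Fkbp5 (1.149 ± 0.27) were called higher in saline IP. The part of either list in the members' values was not tested.

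Against input, all 10 members had a positive log2FC in saline IP, with Per2 and Cry2 turning negative in some of the alternatives (median 0.36, against 0.02 over all 18437 genes tested), and 0 of 10 were called, where 11.3% of all genes were. At an unadjusted p under 0.05 edgeR passed 1 member, Bhlhe41, and 25.1% of all genes, and DESeq2 called 0 members too. The largest values were those of Nr1d1 (0.71 ± 0.34), Dbp (0.66 ± 0.35) and Bhlhe41 (0.58 ± 0.26), followed by Bhlhe40 (0.40 ± 0.19), Nr1d2 (0.38 ± 0.31), Per1 (0.34 ± 0.28), Cry1 (0.22 ± 0.24), Per3 (0.18 ± 0.26), Cry2 (0.09 ± 0.21) and Per2 (0.05 ± 0.26). Their order rests in part on single saline libraries: without saline library 1, Nr1d2 was at 0.22 and Cry1 at 0.10, and without saline library 3, Per1 was at 0.20. The adjusted p of the members ranged upward from 0.188 (Bhlhe41). With 1 input library the fit takes its spread from the IP libraries. The library names put the input on lane 7, apart from every IP group, and effects of lane and of IP cannot be told apart. Ambiguous reads were 5.65% of those listed in the input and 1.58% to 1.90% in the IP libraries. Of the members, Nr1d1, Dbp and Bhlhe41 also have the largest exonic shares opposite other exons (8.55%, 18.01% and 19.05%). Thra and Sphk2, opposite Nr1d1 and Dbp, are among the genes counted. Gm43909, opposite Bhlhe41, is not, so reads shared with it would not be listed as ambiguous. The part of such reads in these values was not tested.

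Library by library, Bhlhe40, Bhlhe41, Cry1, Nr1d1 and Dbp were above the input in 9 of 9 IP libraries, as were 21.5% of all genes tested. For Bhlhe40 the ratio to input ran from 1.24 to 1.80, for Nr1d1 from 1.06 to 2.02, and for Dbp from 1.001 in cocaine library 3 to 1.72 in yoked library 2. Per1, Per2, Per3 and Nr1d2 were above input in 8 of 9 libraries and Cry2 in 7. All 9 ratios of a gene share the same input value, so an error in that value moves them together. S100a10, by comparison, was 4.76 to 7.996 times its input level.

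**Figure D3:**
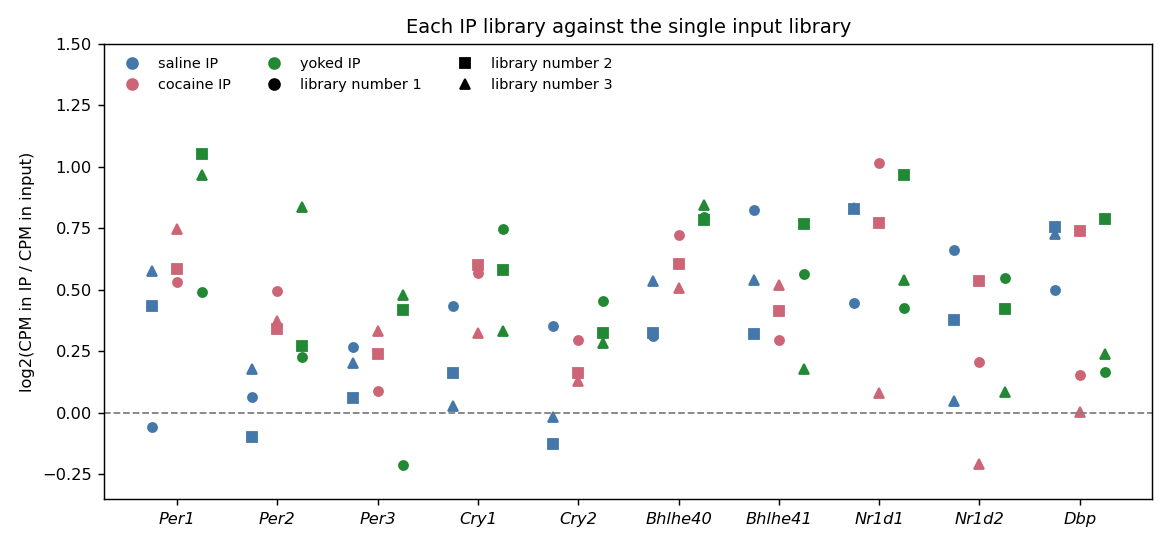
Log2 ratio of the level in each IP library to that in the single input (dashed line at 0) for the 10 genes, by group (colour) and library number (symbol). Bhlhe40, Bhlhe41, Cry1, Nr1d1 and Dbp stay at or above 0 in all 9 libraries, and the spread within a group is often as wide as the distance between groups.

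Whether libraries with the same number shared a level, whatever their group, was tested jointly with group as a covariate. The labels number the IP libraries 1 to 3 in each group but do not say what a number shares, beyond an index sequence in the library names. The choice of members did not use the library number, although results by library number were known. Nr1d2 was called (edgeR adjusted p = 0.0421), 1 of 10 members, where 9.26% of all genes were. The libraries numbered 3 were below the mean of the other two in all 3 groups, by 0.47 in saline, 0.58 in cocaine and 0.40 in yoked on the log2 scale. The call was lost on leaving out any library but cocaine library 1 (adjusted p between 0.0606 and 0.249). Per1 (0.0902), Dbp (0.155), Cry1 (0.207) and Cry2 (0.311) were not called. Cry1 was lowest in library 3 of every group, as 13.4% of all genes were. Per1 was lowest in library 1 of every group, as 3.56% of all genes were, and Cry2 was highest there, as 3.62% were. Without cocaine library 1, Per1 (0.0103) and Nr1d1 (0.0300) passed in addition to Nr1d2, and with DESeq2 Per1 did (0.0421).

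Of the clock genes outside the 10, Ciart alone was called for library number. That was 1 of 8 other repressors and outputs, 0 of 7 activators and 0 of 8 genes for turnover and cofactors. Of all genes 9.26% were called. Ciart, which encodes a further repressor of the CLOCK and BMAL1 pair, had an edgeR adjusted p of 0.0322. It was at 12.4, 17.8 and 15.2 CPM in saline IP, 15.4, 21.0 and 9.99 in cocaine IP and 12.6, 21.7 and 11.2 in yoked IP. Library 2 was thus the highest of every group for Ciart, as it was for Dbp, and 2.54% of all genes had that pattern. Marker sums also differed by library number. Oligodendrocyte markers (6 of 6 present, none at 0) summed to 197, 533 and 226 CPM in saline IP, 696, 530 and 244 in cocaine IP and 295, 454 and 176 in yoked IP. Meningeal fibroblast markers summed to 1199, 1039 and 1350, to 920, 860 and 1255, and to 963, 925 and 1481 CPM in the same order, highest in library 3 of every group. The part of these markers in the values of Nr1d2, Dbp and Ciart was not tested.

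**Figure D4:**
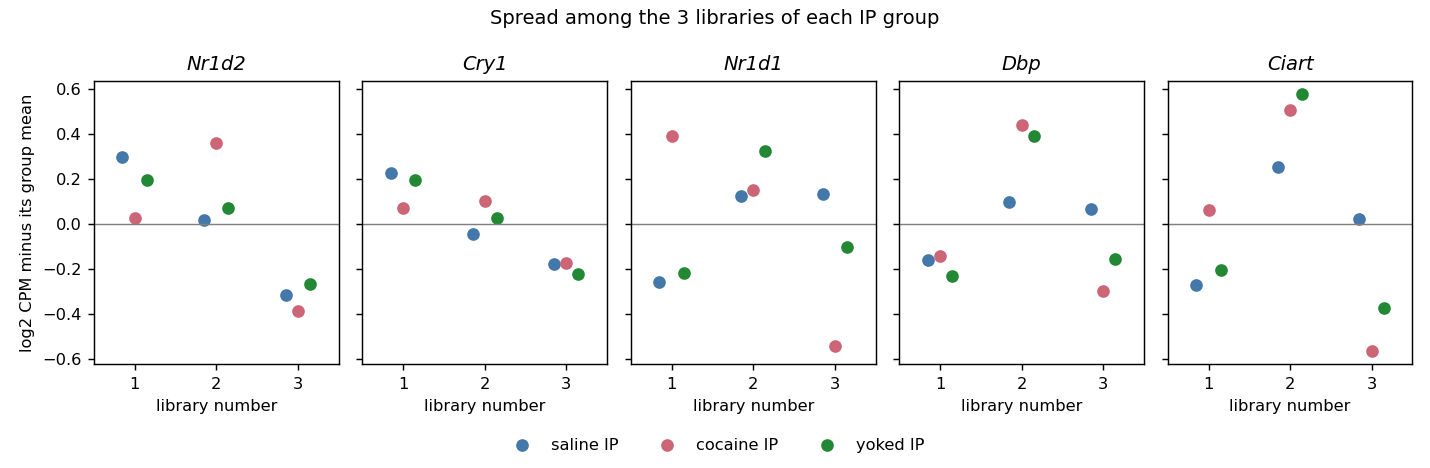
Log2 CPM minus its group mean (vertical axis) for 4 member genes and Ciart, by library number, with groups in colour. Nr1d2 and Cry1 are lowest in library 3 of every group, and Dbp and Ciart are highest in library 2 of every group.

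The rest of the loop was read from 3 lists of clock genes that hold no member. By edgeR 0 of their measured genes were called between IP groups or against input. At an unadjusted p under 0.05 the count was 0 between IP groups and 2 against input. Among the activators, 7 of 7, Arntl and Clock among them, were above saline in cocaine, with a median log2FC of 0.18, and 6 of 7 in yoked (0.22). The largest values were Arntl2 at 0.61 ± 0.31 and the receptor gene Rorb at 0.25 ± 0.14 in cocaine. The receptor gene Rora was at 0.25 ± 0.15 in yoked, and Arntl2 was at 0.38 ± 0.31 in cocaine against yoked. Arntl itself, the gene that NR1D1 and NR1D2 repress, was at 32.8, 29.8 and 33.2 CPM in saline IP, 39.3, 36.3 and 33.5 in cocaine IP and 34.4, 28.5 and 33.3 in yoked IP. Against input, 4 of 7 activators were above 0, and Arntl2 was at -0.85 ± 0.40.

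The list of other repressors and outputs (Ciart, Nfil3, Tef, Hlf, Ccrn4l, Usp2, Wee1 and Timeless) had 7 of 8 genes above saline in both cocaine and yoked, with a median of 0.09 in each. Nfil3, whose protein represses at the D-box where DBP activates, had the largest value in cocaine (0.27 ± 0.19), with the deadenylase gene Ccrn4l at 0.20 ± 0.15, and Wee1 (0.21 ± 0.14) and Hlf (0.20 ± 0.13) led in yoked. Between cocaine and yoked, Nfil3 (0.09 ± 0.19) and Wee1 (-0.08 ± 0.14) were largest, and against input Ciart (0.50 ± 0.42) and Timeless (0.31 ± 0.41). The DBP relative Tef was at 191 to 223 CPM over the IP libraries and its relative Hlf at 723 to 1015 CPM. Genes for clock protein turnover and cofactors (8 genes, Csnk1d, Btrc and Gsk3b among them) had medians of 0.02 in cocaine and 0.06 in yoked against saline. Gsk3b (0.18 ± 0.13 and 0.14 ± 0.13) was largest in both, with the kinase gene Csnk1d (0.16 ± 0.13) in cocaine and the ubiquitin ligase gene Btrc (0.14 ± 0.14) in yoked. In cocaine against yoked the kinase gene Csnk1e (-0.18 ± 0.15) was largest, and against input Gsk3b (-0.38 ± 0.19).

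For the members with the widest ranges, Per1 and Per2, the most similar profiles were sought among genes that are not members. Likeness was the root mean square difference of log2 CPM, each gene centred on its own mean over the 9 IP libraries, among 12909 other genes. Nearest to Per1 were Zfp704 (0.101), Nt5dc3 (0.127) and Igf2bp3 (0.132), where the median gene was at 0.380. Nearest to Per2 were Jmjd1c (0.107), Sh3pxd2b (0.108) and Mn1 (0.109), where the median gene was at 0.331. Bhlhe40 was the nearest member to both, at 0.217 from Per1 and 0.169 from Per2, which ranked it 344 and 148 among the other genes by nearness. Members were left out of the search for the nearest genes, so none of those could have been a member. Members were also few beside the 12909 other genes. No conclusion about the clock is drawn from these neighbours. The profiles also rest on the IP levels on which the members were selected.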

How the data were processed

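The authors deposited raw read counts per gene symbol, 1 table per library; per the submitters' processing notes, STAR 2.0.0e, HTSeq and mm10 were used. For annotation and strand setting: not given in the sources used here. The 6 entries that name no gene were left out; among them, reads at more than 1 place were 38.3% to 46.8% of all listed reads by library, reads in no gene 6.08% to 9.52% and ambiguous reads 1.58% to 5.65%.

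The members and lists were chosen with earlier results of these data known. Tests ran in edgeR 4.0.16 under R 4.3.3, after filterByExpr at a minimum count of 10 and TMM scaling, by quasi-likelihood F tests and Benjamini-Hochberg adjustment. The 9 IP libraries were fitted together for group contrasts and for library number (group as covariate), and all 10 libraries for saline IP against input. CPM were scaled by library size and TMM factors. Positions and exonic lengths (union of exons) came from GENCODE M21 (GRCm38); 73.4% of symbols had a length. DESeq2 1.42.0 was an alternative. The fit was tested on simulated data.

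Named genes were the 10 members, for each clock list every called gene and the 2 largest differences per comparison, the sums and leading genes of the activity and glucocorticoid lists, and for the 2 members of widest range the 3 most similar genes. Some genes that this rule names are not reported here, although they count in the list totals.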

Additional observations from a re-analysis of the deposited data

How the results depend on the processing

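Across 18 alternatives, 705 of 710 member differences stayed within 1 SD between libraries of the value given, and 0 were called. That count is a weak check of stability. Some alternatives leave out a library outside the comparison and can hardly move its value. A shift within 1 SD can also be nearly as large as the difference. In cocaine against saline, Per1 ran from 0.11 to 0.41 and Nr1d2 from -0.37 to -0.01, all within 1 SD. In all alternatives run, Per1, Per2, Cry1, Cry2 and Bhlhe40 were above and Dbp below saline in both comparisons, whereas Per3 and Nr1d1 took either sign in both and Bhlhe41 and Nr1d2 in yoked against saline. In cocaine against yoked, Per1, Cry2 and Bhlhe40 stayed below 0 in all alternatives and the other members did not. No genes were called between IP groups under any alternative. With a replicate block the numbers called were again 0 for cocaine against saline, yoked against saline, cocaine against yoked and any difference among the IP groups, and genes at an unadjusted p under 0.05 were 1154, 690, 439 and 684, against 530, 398, 159 and 268 without it. Deviations from group means correlated at -0.0483 to 0.139 between libraries numbered 1, 0.0827 to 0.244 between those numbered 2 and 0.321 to 0.359 between those numbered 3. Between different numbers they correlated at -0.365 to 0.296. Libraries numbered 3 thus deviated together, while those numbered 1 and 2 did not stand out from different numbers. The main contrasts did not take the numbers as pairs and leave this shared part out of the fit. Input has no number, so the block was not fitted against input.

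The test of library number called 1541 genes, 2467 with DESeq2, 2442 with no filter, 356 (without yoked library 3) to 3233 (without cocaine library 1) leaving out 1 library, and 1 with all libraries numbered 3 left out, a setting chosen after seeing the data. Leaving those out also moved the genes called against input from 2089 to 3442, with 0 members called, and left fewer libraries in the fit. The other causes were not tested. Depth limits Dbp most, with 275 to 572 counts per IP library.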
